A study of Mus musculus with 33 samples.

Results

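Cdkn1a, Ccng1, Plk2, Btg2, Sesn1, Bax, Bbc3, Pmaip1, Phlda3 and Mdm2, 10 target genes of the tumour suppressor p53, were followed through 33 single mouse blastocysts. They were chosen by name, as textbook targets of p53, and were matched to the gene names that the scanner files give. All 10 were found among the 27670 genes named on the array, with 16 of its 41174 probes. The brightest probe of each gene, by its mean over all arrays, passed the filter on dim probes and was among the 22787 probes tested. That probe stands for its gene below unless another is named. Of the genes, 5 were grouped as acting on cell cycle arrest and growth (Cdkn1a, Ccng1, Plk2, Btg2 and Sesn1), 4 as acting on apoptosis (Bax, Bbc3, Pmaip1 and Phlda3), and Mdm2 as the feedback on p53.

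The embryos were (C57BL/6NxDBA/2)F1 blastocysts, either cloned by transfer of a somatic nucleus into an enucleated oocyte or made by in vitro fertilisation (IVF). The male groups were clones of Purkinje cells (n = 4), the large output neurons of the cerebellar cortex, clones of hippocampal CA1 pyramidal cells (n = 4), clones of Sertoli cells of the testis (n = 4) and IVF embryos (n = 7). The female groups were clones of Purkinje cells (n = 4), of CA1 cells (n = 4) and of cumulus cells (n = 3), which surround the oocyte, and IVF embryos (n = 3). Sertoli donors were neonatal and the other donors adult. Every clone had received 50 nM trichostatin A, an inhibitor of histone deacetylases, for 1 h of activation, 5 h together with cytochalasin B and 2 h alone. All embryos had been cultured for 96 h. No group held clones without the drug, so cloning and trichostatin A cannot be told apart. The labels do not say how many donor animals lay behind a group, so p-values reflect only how far these samples scatter, and that scatter may be technical. The 13 arrays of IVF embryos and cumulus clones were taken over from previous work of the laboratory and were read on an older scanner. The other 20 arrays belong to the present study. Clone and IVF thus cannot be told apart from array set for 5 of the 6 clone groups, or from slide and scan day for the cumulus clones.

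p53 is a transcription factor that accumulates when DNA is damaged or the cell is otherwise stressed, and it binds pairs of a short half-site in its target genes. Its targets halt the cell cycle, tip the balance of the Bcl2 family towards apoptosis, or limit p53 itself, since Mdm2 is the ubiquitin ligase that marks p53 for destruction. In early embryos the pathway is known as a check on cells with damaged genomes.

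Values are log2 of the processed spot intensity over the 75th percentile of its array, so a value of 0 is the brightness of that percentile. Because each probe has its own efficiency, values were set against each other between embryos and never between genes. The array percentile itself ran from 229.7 to 659.1 in the male Purkinje clones, from 353.8 to 838 in the female Purkinje clones and from 904.3 to 1465.6 in all other groups. All 9 markers of blastocyst lineages passed the filter, and 8 or 9 of them were well above background on every array of each group. Of the 5 markers listed for each donor cell type, at most 3 were well above background on every array of a group. One of them was the CA1 marker Wfs1, which rose in 5 of the 6 clone groups over IVF, the Sertoli clones among them. On every array of the male and of the female CA1 clones 2 CA1 markers were well above background. In each other group 1 was. Of 2 CA1 markers tested, 1 was higher in male CA1 than in Sertoli clones, where 9.46% of all probes were called in either direction.

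Between 5 and 8 of the 10 p53 targets rose over IVF in each male clone group, and at most 1 did in each female clone group. The male tests rest on 7 IVF embryos and the female tests on 3, so these counts do not compare the sexes. Tests of the difference between the sexes are given below. In male Purkinje clones 8 of the 10 genes rose, led by Plk2, Cdkn1a and Pmaip1, where 16.3% of all probes rose (limma, adjusted p under 0.05). In male CA1 clones 8 rose against a background of 14.9%. In Sertoli clones 5 rose against 13.4%. None of the 10 fell in these comparisons, where 10.1%, 13.3% and 10.7% of all probes fell, and none was lower at an unadjusted p under 0.05. Among female Purkinje clones 1 gene rose, Ccng1, against a background of 11.2%. For CA1 clones of that sex none passed the test against a background of 11.8% called in either direction, and 3 were higher at an unadjusted p under 0.05, where 15% of all probes were. Cumulus clones likewise showed none against 4.61%, with 1 gene higher at an unadjusted p under 0.05 against 8.75%. Every clone lay above every IVF embryo for 7 genes in male Purkinje, 5 in male CA1 and 2 in Sertoli clones, where 7.36%, 10% and 7.82% of all probes did. For 2 genes this held in female CA1 clones, against 11.8%. The median difference over the 10 genes was 2.19 in male Purkinje, 1.57 in male CA1 and 1.47 in Sertoli clones, against medians over all probes of 0.043, 0 and 0. With signal floored at 1 the medians over all probes were 0.20, 0.11 and 0.12, and with normexp background correction that of male Purkinje clones was 0.38, with 1.66 over the 10 genes. Among females it was 0.67 in Purkinje, 0.75 in CA1 and 0.18 in cumulus clones, against 0.062, 0.033 and 0. In female Purkinje clones it was 0.39 with normexp, against 0.40 over all probes, and 0.090 without the 3 arrays of low percentile, which leaves 1 embryo. Comparisons of one sex share their IVF embryos and so are not independent of each other.

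A single embryo decided part of some counts. Without the first male CA1 clone the count there was 5 and not 8, and without the fourth Sertoli clone it was 3 and not 5. Ccng1 lost its call in female Purkinje clones without the third female IVF embryo. The count in male Purkinje clones was 7 or 8 with any 1 embryo left out, and 7 without the 2 of its arrays whose percentile was under 500.

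**Figure D1:**
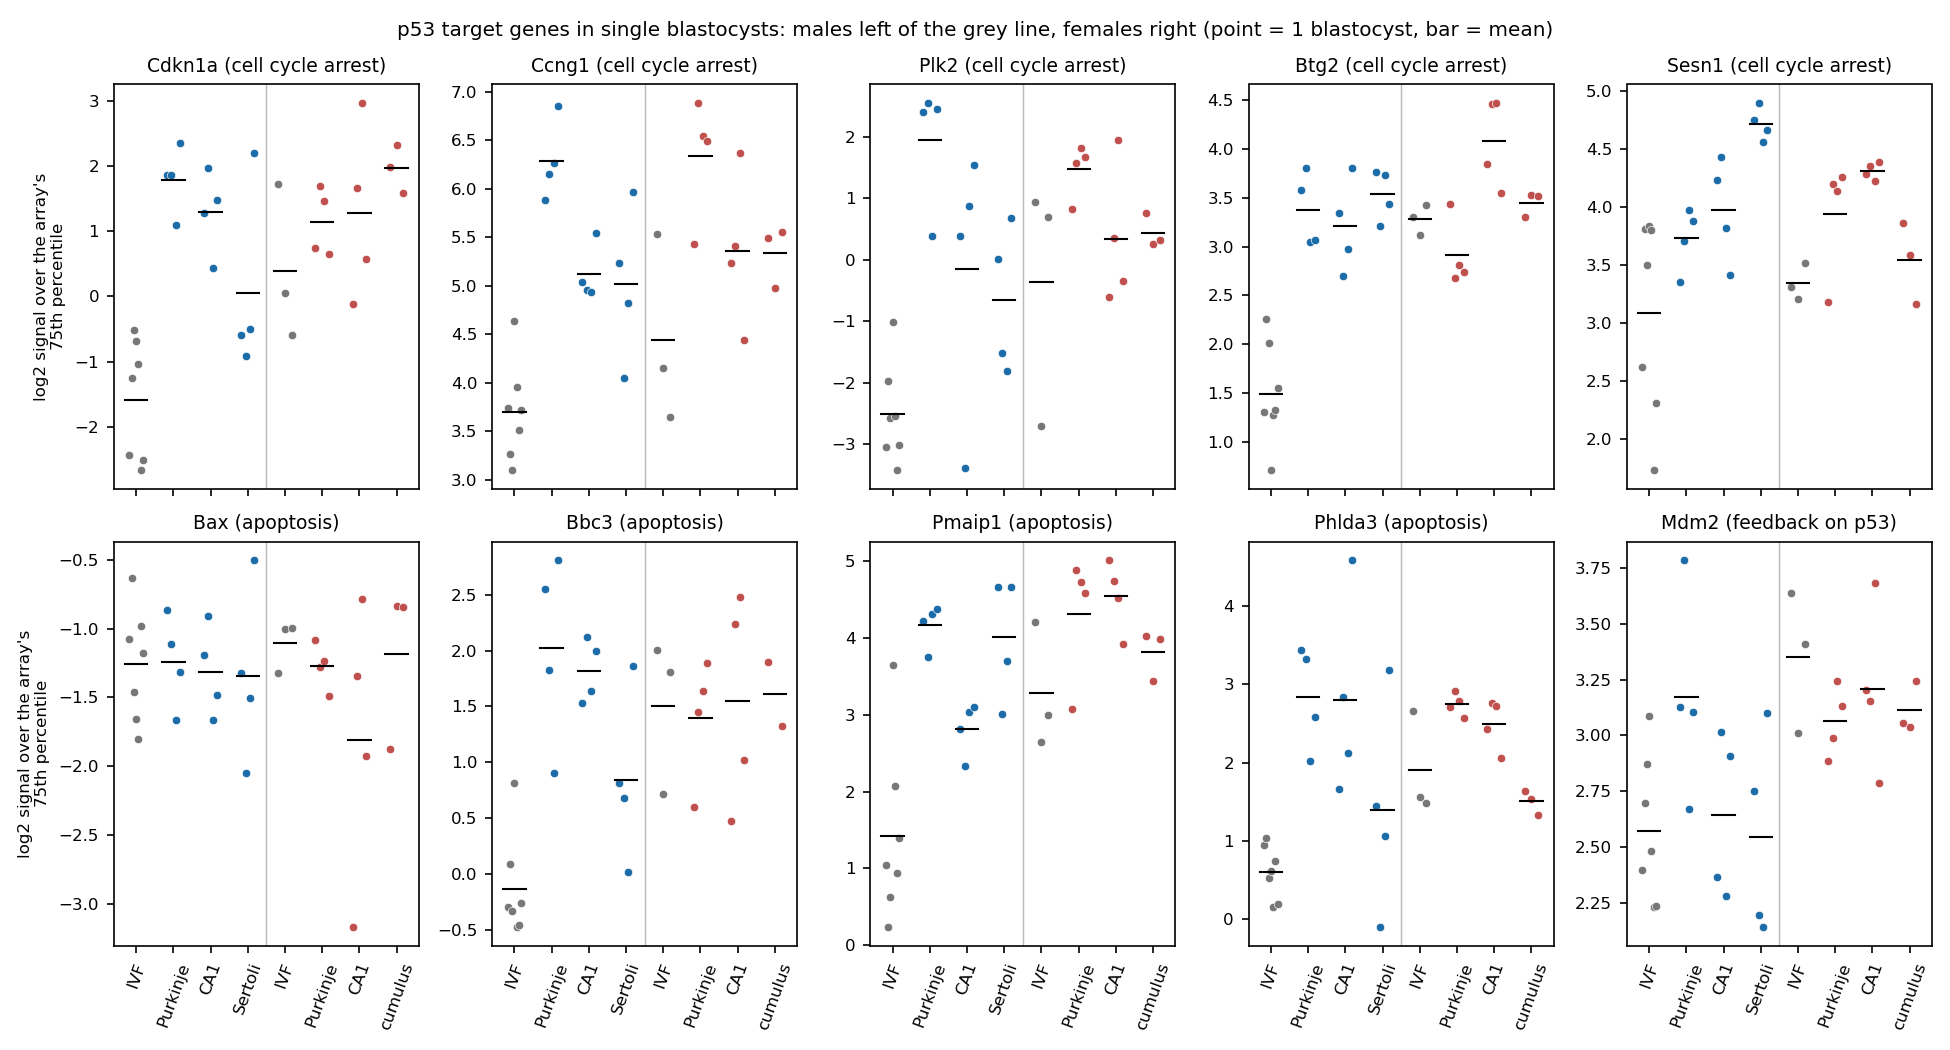
Each panel shows 1 gene, with a point for each blastocyst, a bar for the group mean, males left of the grey line and females right of it, and the y axis in log2 signal over the array's 75th percentile. Male IVF embryos have the lowest mean of the 8 groups for 8 of the 10 genes, and Bax and Mdm2 are the others.

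The sequences just upstream of the genes bear on them because p53 acts there on some of its targets. RefSeq promoter windows (GRCm38.p6, 250 bases before to 50 after the gene's start) matched 9 of the 10 genes by symbol, with 13 windows, and Pmaip1 did not match. Both strands were searched for the p53 consensus half-site, a motif of 10 bases that reads the same on either strand. With no mismatch allowed, a half-site was found for 5 genes, and only Cdkn1a held a pair with at most 13 bases between. Half-sites with a mismatch were not searched, so the marked pair need not be the site that p53 binds. In capitals are the half-sites, read 5′ to 3′ on the strand of the gene.
Cdkn1a: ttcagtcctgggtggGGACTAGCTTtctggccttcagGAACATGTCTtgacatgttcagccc
Ccng1: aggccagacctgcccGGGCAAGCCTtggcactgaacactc
Sesn1: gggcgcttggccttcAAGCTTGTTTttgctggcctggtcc
Bax: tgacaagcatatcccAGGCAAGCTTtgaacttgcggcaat
Mdm2: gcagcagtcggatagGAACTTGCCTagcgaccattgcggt
The Cdkn1a stretch is chr17:29090891-29090952 on the plus strand, with half-sites 73 to 64 and 51 to 42 bases upstream of its first listed start. That of Ccng1 is chr11:40755447-40755486 on the minus strand, 185 to 176 bases upstream. The Sesn1 stretch, before its second listed start, is chr10:41887251-41887290 on the plus strand, 173 to 164 bases upstream. For Bax it is chr7:45467075-45467114 on the minus strand, 201 to 192 bases upstream, and for Mdm2 chr10:117710920-117710959 on the minus strand, 186 to 177 bases upstream. Windows of Plk2, Btg2, Bbc3 and Phlda3 held no match to these letters, nor did the window of the second listed Cdkn1a start or that of the first Sesn1 start. Counted by gene, a half-site occurred in a window of 9.55% of the gene symbols in the table. By window, a half-site occurred in 8.36% of its 32851 windows and a pair in 0.0731%, which is 24 windows. These are matches of letters in one window, and sites elsewhere in a gene were not searched.

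Cdkn1a encodes p21, the inhibitor of cyclin-dependent kinases through which p53 stops cells before S phase. The 7 male IVF embryos had a lowest, median and highest value of -2.67, -1.25 and -0.51 (probe A_51_P363947). Cdkn1a was 1.86, 1.86, 1.1 and 2.35 in the male Purkinje clones and 1.29, 1.97, 0.44 and 1.48 in the male CA1 clones. All 8 of these clones were above all 7 IVF embryos. The differences were 3.38 on the log2 scale (SE 0.57), or 10.4-fold (adjusted p = 0.000111) for Purkinje and 2.88 on the log2 scale (SE 0.57), or 7.36-fold (adjusted p = 0.00039) for CA1. Sertoli clones read -0.59, -0.91, -0.51 and 2.20. The fourth Sertoli clone was high, the first and second lay inside the IVF range and the third just above it. The Sertoli difference was 1.64 (SE 0.57, adjusted p = 0.0372), and without that clone it was 0.92 (adjusted p = 0.252).

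No female clone group differed from IVF in Cdkn1a past the threshold. The female IVF embryos read 1.72, 0.054 and -0.60, the female Purkinje clones 0.74, 1.70, 1.46 and 0.66, and the female CA1 clones -0.11, 1.67, 2.97 and 0.58. Cumulus clones read 1.99, 2.33 and 1.59. One IVF embryo, the first, was as high as most clones, and every female clone group overlapped the IVF embryos. The cumulus difference was 1.58 (95% interval 0.048 to 3.11, adjusted p = 0.234), that of female Purkinje clones 0.75 (95% interval -0.68 to 2.18, adjusted p = 0.526) and that of female CA1 clones 0.88 (95% interval -0.55 to 2.31, adjusted p = 0.473). The male IVF embryos had the lowest group mean, -1.59 ± 0.93 (SD, n = 7), and cumulus clones the highest, 1.97 ± 0.37 (SD, n = 3), with each group overlapping its neighbour in the order.

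Ccng1 encodes cyclin G1, which recruits a phosphatase to Mdm2. Male IVF embryos ran from lowest over median to highest as 3.1, 3.71 and 4.64 (probe A_51_P161612). Ccng1 read 5.88, 6.16, 6.27 and 6.85 in male Purkinje clones and 5.04, 4.95, 4.93 and 5.55 in male CA1 clones, and both groups lay entirely above the IVF embryos. Their differences were 2.59 on the log2 scale (SE 0.37), or 6-fold (adjusted p = 1.98e-05) and 1.42 on the log2 scale (SE 0.37), or 2.67-fold (adjusted p = 0.00509). The Sertoli clones, at 5.23, 4.04, 4.82 and 5.97, overlapped IVF through the second clone, with a difference of 1.31 (SE 0.37, adjusted p = 0.0111).

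Among females Ccng1 was the 1 gene to pass. Female IVF embryos read 5.53, 4.15 and 3.65 and female Purkinje clones 5.43, 6.88, 6.54 and 6.49. The first Purkinje clone lay below the first IVF embryo, and the other 3 lay above all IVF embryos. The difference was 1.89 on the log2 scale (SE 0.45), or 3.71-fold (adjusted p = 0.00504). It passed in 14 of 19 alternatives. Without the 3 female Purkinje arrays of low percentile, which leaves 1 embryo, it was 0.98 (adjusted p = 0.593). Female CA1 clones read 5.24, 5.41, 6.36 and 4.44 and cumulus clones 5.49, 4.97 and 5.55, with differences of 0.92 (95% interval -0.011 to 1.85, adjusted p = 0.203) and 0.90 (95% interval -0.098 to 1.89, adjusted p = 0.309). On the second Ccng1 probe the female Purkinje clones did not overlap IVF (1.36, SE 0.40, adjusted p = 0.0183).

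Plk2 encodes polo-like kinase 2, which acts in centriole duplication and is induced by p53 after damage. Its lowest, median and highest values in male IVF embryos were -3.43, -2.57 and -1.02 (probe A_51_P290576), and the lowest is the floor set under all values. Male Purkinje clones read 2.40, 2.55, 0.39 and 2.45. All 4 lay above the IVF embryos, and the third stood apart below the rest. The difference was 4.46 on the log2 scale (SE 0.75), or 22-fold (adjusted p = 9.79e-05). Male CA1 clones read 0.39, -3.38, 0.87 and 1.53, of which the second was as low as the lowest IVF embryos. Their difference was 2.37 on the log2 scale (SE 0.75), or 5.16-fold (adjusted p = 0.0179), and it passed in 17 of 22 alternatives. Sertoli clones, at 0.016, -1.52, -1.81 and 0.67, differed by 1.85 (95% interval 0.32 to 3.38, adjusted p = 0.0705) and did not pass.

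In females the Plk2 values of the IVF embryos were 0.93, -2.71 and 0.70, so that the second stood far below the others. Female Purkinje clones read 0.82, 1.58, 1.81 and 1.67, female CA1 clones -0.61, 0.35, 1.95 and -0.35 and cumulus clones 0.76, 0.25 and 0.32. All female clone groups overlapped IVF. The largest of the 3 differences was that of Purkinje clones, 1.83 (95% interval -0.035 to 3.69, adjusted p = 0.176).

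Btg2 encodes an antiproliferative protein that binds the deadenylase complex of mRNA decay. Male IVF embryos had a lowest, median and highest value of 0.71, 1.33 and 2.26 (probe A_52_P31543). Btg2 was 3.58, 3.80, 3.05 and 3.06 in male Purkinje clones, 3.35, 2.70, 2.98 and 3.80 in male CA1 clones and 3.77, 3.21, 3.73 and 3.44 in Sertoli clones. All 12 male clones exceeded all 7 male IVF embryos. The differences were 1.88 on the log2 scale (SE 0.25), or 3.69-fold (adjusted p = 7.32e-06) for Purkinje, 1.72 on the log2 scale (SE 0.25), or 3.28-fold (adjusted p = 8.10e-06) for CA1 and 2.04 on the log2 scale (SE 0.25), or 4.12-fold (adjusted p = 1.87e-06) for Sertoli clones. All 3 passed under every alternative run on this probe, but the dimmer Btg2 probes, given below, passed in no comparison.

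Female IVF embryos did not share the low Btg2 of their male counterparts. They read 3.30, 3.12 and 3.42, all above the highest male IVF embryo, and male IVF was lower by -1.79 on the log2 scale (SE 0.27), or 3.45-fold (adjusted p = 0.00092). That call was lost with slide as a fixed block (adjusted p = 0.536) and with only the IVF groups in the fit (adjusted p = 0.154), and 1 slide held both sexes. Female Purkinje clones read 3.44, 2.68, 2.81 and 2.74, female CA1 clones 3.84, 4.46, 4.47 and 3.55 and cumulus clones 3.30, 3.53 and 3.51. The CA1 clones all lay above female IVF, though the difference missed the threshold, 0.80 (SE 0.30, adjusted p = 0.0844). They also lay above all female Purkinje clones, which were lower than female CA1 clones by -1.17 on the log2 scale (SE 0.28), or 2.24-fold (adjusted p = 0.00907). Of the 10 genes this was the 1 called in that comparison, where 3.79% of all probes were lower. Without the 3 female Purkinje arrays of low percentile, which leaves 1 embryo, the difference was -0.65 (adjusted p = 0.836). Btg2 was also the 1 gene for which male IVF, the lowest group, did not overlap the next group in order, the female Purkinje clones at 2.92 ± 0.35 (SD, n = 4).

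Sesn1 encodes sestrin 1, which restrains the growth kinase complex mTORC1 under stress. Its lowest, median and highest values in male IVF embryos were 1.73, 3.50 and 3.84 (probe A_51_P233954). Sertoli clones read 4.75, 4.90, 4.56 and 4.67 and all exceeded IVF, by 1.64 on the log2 scale (SE 0.31), or 3.11-fold (adjusted p = 0.000388). They were also above every other group, with no overlap with the next in order, the female CA1 clones. Male CA1 clones read 4.23, 4.44, 3.82 and 3.42 and rose by 0.89 (SE 0.31, adjusted p = 0.0327) while overlapping IVF, a call kept in 12 of 22 alternatives. Male Purkinje clones, at 3.35, 3.71, 3.97 and 3.88, differed by 0.64 (95% interval 0.006 to 1.28, adjusted p = 0.129).

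Sesn1 was tight in 2 female groups. Female IVF embryos read 3.31, 3.21 and 3.52 and female CA1 clones 4.28, 4.36, 4.22 and 4.39, without overlap. The difference, 0.97 (SE 0.38, adjusted p = 0.0977), missed the threshold. Female Purkinje clones read 3.18, 4.20, 4.14 and 4.26, the first of them below all 3 IVF embryos, and cumulus clones read 3.86, 3.59 and 3.17.

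Bbc3 encodes Puma, a BH3-only protein that neutralises the antiapoptotic Bcl2 proteins. The lowest, median and highest male IVF values were -0.48, -0.29 and 0.81 (probe A_51_P248122). Bbc3 was 2.55, 1.82, 0.90 and 2.81 in male Purkinje clones and 1.53, 2.12, 1.64 and 1.99 in male CA1 clones. All 8 exceeded all male IVF embryos. The differences were 2.15 on the log2 scale (SE 0.40), or 4.45-fold (adjusted p = 0.00028) and 1.95 on the log2 scale (SE 0.40), or 3.86-fold (adjusted p = 0.000514). Sertoli clones, at 0.82, 0.68, 0.015 and 1.86, overlapped IVF and differed by 0.97 (95% interval 0.16 to 1.78, adjusted p = 0.0738).

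Female Bbc3 values overlapped throughout. IVF embryos read 2.00, 0.72 and 1.80, Purkinje clones 0.60, 1.45, 1.64 and 1.89 and CA1 clones 0.47, 2.24, 2.48 and 1.02. The cumulus clones with a value read 1.90 and 1.32, since the scanner software had marked the spot of the first as an outlier and it was left out. The differences from female IVF were -0.11 (95% interval -1.10 to 0.88, adjusted p = 0.951) for Purkinje, 0.045 (95% interval -0.94 to 1.03, adjusted p = 1) for CA1 and 0.10 (95% interval -1.08 to 1.28, adjusted p = 1) for cumulus clones.

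Pmaip1 encodes Noxa, another BH3-only protein. Its lowest, median and highest values in male IVF embryos were 0.23, 1.05 and 3.65 (probe A_51_P477121), with the fourth embryo far above the rest. Male Purkinje clones read 4.23, 3.75, 4.31 and 4.38 and lay above all IVF embryos, by 2.74 on the log2 scale (SE 0.46), or 6.69-fold (adjusted p = 0.000105). Sertoli clones, at 4.67, 3.01, 3.70 and 4.67, differed by 2.59 on the log2 scale (SE 0.46), or 6.01-fold (adjusted p = 0.000201), and their second embryo lay below the highest IVF embryo. Male CA1 clones read 2.82, 2.33, 3.04 and 3.1 and all lay within the IVF range. Their difference of 1.40 on the log2 scale (SE 0.46), or 2.63-fold (adjusted p = 0.0239) passed in 15 of 22 alternatives.

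Among females Pmaip1 read 4.21, 2.65 and 3.00 in IVF embryos, 3.08, 4.89, 4.73 and 4.59 in Purkinje clones and 5.02, 4.75, 4.52 and 3.92 in CA1 clones. Cumulus clones read 4.03, 3.44 and 3.98. The first Purkinje clone was apart below the other 3, and the first IVF embryo lay within the range of each clone group except the cumulus clones, which it exceeded. No difference passed, and that of CA1 clones was 1.26 (95% interval 0.11 to 2.42, adjusted p = 0.152).

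Phlda3 encodes a pleckstrin homology domain protein that keeps the survival kinase Akt from the membrane. Male IVF embryos were tight, with a lowest, median and highest value of 0.15, 0.62 and 1.04 (probe A_51_P329928). Phlda3 was 3.43, 3.32, 2.02 and 2.59 in male Purkinje clones and 1.67, 2.84, 2.12 and 4.59 in male CA1 clones, all above IVF. The differences were 2.23 on the log2 scale (SE 0.45), or 4.71-fold (adjusted p = 0.000594) and 2.20 on the log2 scale (SE 0.45), or 4.59-fold (adjusted p = 0.000496). Sertoli clones ranged widely, at 1.45, -0.10, 1.06 and 3.18, from below the IVF range to far above it, and differed by 0.79 (95% interval -0.13 to 1.71, adjusted p = 0.209).

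Female IVF embryos read 2.66, 1.56 and 1.49 for Phlda3, female Purkinje clones 2.71, 2.91, 2.78 and 2.57 and female CA1 clones 2.43, 2.76, 2.73 and 2.06. Cumulus clones read 1.64, 1.54 and 1.33. The first IVF embryo lay among the Purkinje and CA1 clones and the other 2 among the cumulus clones. The difference of Purkinje clones was 0.84 (95% interval -0.28 to 1.96, adjusted p = 0.318).

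Bax, the effector that opens the outer mitochondrial membrane, was the gene of the 10 with no difference past the threshold in any of the 13 comparisons. Its values lay between -3.17, in the first female CA1 clone, and -0.50, in the fourth Sertoli clone (probe A_51_P254541). Group means were -1.25 ± 0.41 (SD, n = 7) in male IVF, -1.24 ± 0.34 (SD, n = 4) in male Purkinje, -1.31 ± 0.33 (SD, n = 4) in male CA1 and -1.34 ± 0.64 (SD, n = 4) in Sertoli embryos. The differences from male IVF were 0.015 (95% interval -0.64 to 0.67, adjusted p = 1), -0.057 (95% interval -0.72 to 0.60, adjusted p = 0.943) and -0.089 (95% interval -0.75 to 0.57, adjusted p = 0.901) in that order. All 3 intervals stayed within 1 of 0 on the log2 scale. The female CA1 clones had the lowest Bax mean, -1.81 ± 1.02 (SD, n = 4), with that first clone far below the other 3, and differed from female IVF by -0.70 (95% interval -1.50 to 0.10, adjusted p = 0.273).

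Mdm2, the feedback inhibitor, moved little. Male IVF embryos had a lowest, median and highest value of 2.23, 2.48 and 3.09 (probe A_52_P469842), and male Purkinje clones read 3.13, 3.79, 2.67 and 3.1. These groups overlapped, and the difference of 0.60 on the log2 scale (SE 0.22), or 1.51-fold (adjusted p = 0.0445) passed in 7 of 23 alternatives. Male CA1 clones read 2.37, 3.01, 2.28 and 2.91 and Sertoli clones 2.75, 2.19, 2.14 and 3.1, with differences of 0.069 (95% interval -0.38 to 0.52, adjusted p = 0.877) and -0.027 (95% interval -0.48 to 0.42, adjusted p = 0.979). The highest group mean was that of female IVF embryos, which read 3.64, 3.01 and 3.41. Female Purkinje clones read 2.89, 2.99, 3.24 and 3.13, female CA1 clones 3.20, 3.15, 3.68 and 2.79 and cumulus clones 3.06, 3.04 and 3.24, all with mean differences below 0 from IVF and none past the threshold.

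**Figure D2:**
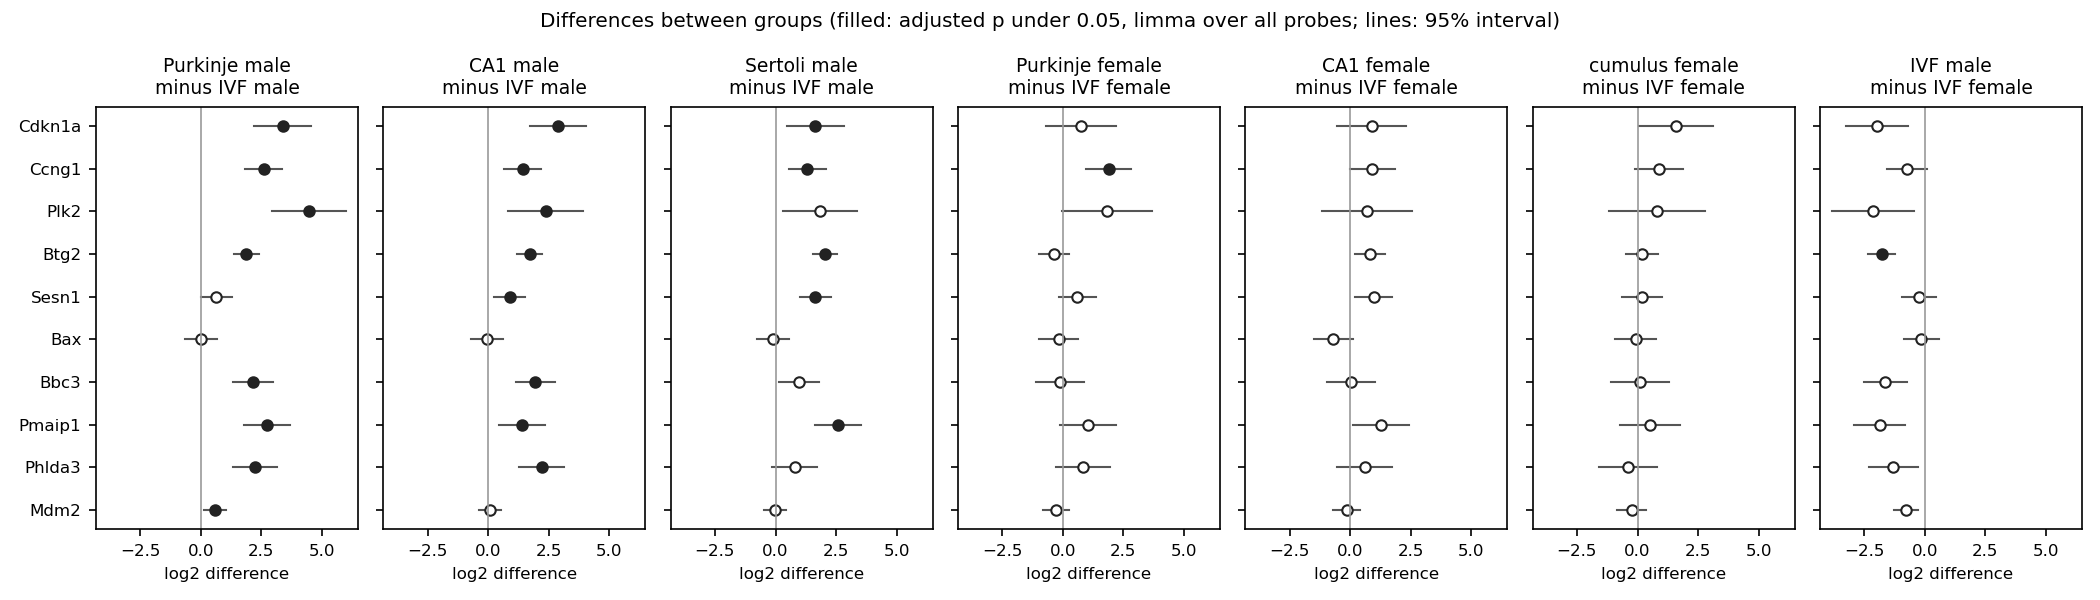
The x axis of each panel is the log2 difference between 2 groups, with a point per gene, a line for its 95% interval and filled points for an adjusted p under 0.05. The 3 male clone panels hold 8, 8 and 5 filled points to the right of 0, the 3 female clone panels 1, 0 and 0, and the panel of male minus female IVF 1, Btg2, to the left.

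The IVF embryos were also compared with each other by sex. All 10 genes had a lower mean in male than in female IVF embryos, with a median difference of -1.47 against 0.0077 over all probes. Only Btg2 passed the test, where 0.246% of all probes were lower in males, and 7 of the 10 were lower at an unadjusted p under 0.05, where 5.89% of all probes were. Btg2 and Phlda3 did not overlap between the sexes, as 1.26% of all probes did not in that direction. Cdkn1a differed by -1.98 (SE 0.63, adjusted p = 0.188), Plk2 by -2.15 (SE 0.82, adjusted p = 0.273), Bbc3 by -1.64 (SE 0.44, adjusted p = 0.106) and Pmaip1 by -1.86 (SE 0.51, adjusted p = 0.117). The count was 2 without the fourth male IVF embryo. One slide held 1 male and all 3 female IVF embryos, and on it alone the Btg2 difference was -2.0, which rests on that 1 male.

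The difference between clone and IVF was therefore compared between the sexes for the donors present in both. The male minus the female Purkinje effect was above 0 for all 10 genes and passed for Btg2, at 2.24 (SE 0.39, adjusted p = 0.0133), where 0.0307% of all probes passed upward. This call was lost in 4 of 29 alternatives: normexp background correction (2.19, adjusted p = 0.9997), only the groups of the comparison (adjusted p = 0.0819), the replicate block (2.09, adjusted p = 0.085) and leaving out the 5 Purkinje arrays of low percentile (2.04, adjusted p = 0.319). The difference was 2.63 (95% interval 0.78 to 4.49, adjusted p = 0.472) for Cdkn1a and 2.26 (95% interval 0.98 to 3.54, adjusted p = 0.308) for Bbc3. In all, 6 genes were higher at an unadjusted p under 0.05, against 3.45% of all probes. For CA1 clones none of the 10 passed, against 0.799% of all probes in either direction, and 4 were higher at an unadjusted p under 0.05, against 5.59%. Btg2 differed there by 0.91 (95% interval 0.11 to 1.72, adjusted p = 0.321). Clone and IVF means both enter these values. The group means of male and female Purkinje clones were 1.79 ± 0.52 (SD, n = 4) and 1.14 ± 0.52 (SD, n = 4) for Cdkn1a and 3.37 ± 0.38 (SD, n = 4) and 2.92 ± 0.35 (SD, n = 4) for Btg2.

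The male clone groups were also compared with each other, while cumulus clones were not tested against other female clones. None of the 10 genes passed between male Purkinje and male CA1 clones, against 15.7% of all probes in either direction, though 4 were higher in Purkinje at an unadjusted p under 0.05, where 17.2% of all probes were. Purkinje and Sertoli clones gave none against 3.76%, with 6 higher and 1 lower in Purkinje at an unadjusted p under 0.05, where 10.2% and 6.65% of all probes were. CA1 and Sertoli clones gave none against 9.46%, with 2 higher and 2 lower in CA1 at an unadjusted p under 0.05, where 11.1% and 13.1% were. Without the fourth Sertoli clone 3 genes passed between Purkinje and Sertoli and 2 between CA1 and Sertoli clones, and without the first male CA1 clone 1 did in the latter. Without the first male Purkinje clone 1 gene differed between Purkinje and CA1 clones. The second Ccng1 probe was higher in male Purkinje than in male CA1 clones by 1.52 (SE 0.37, adjusted p = 0.0059).

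The arrest and the apoptosis genes were also averaged in each embryo. Averaged over the 5 arrest genes, male Purkinje clones stood 2.59 ± 0.34 (SD, n = 4) above the mean of male IVF embryos, male CA1 clones 1.85 ± 0.43 and Sertoli clones 1.70 ± 0.64. Over the 4 apoptosis genes, Bax included, the same groups stood 1.79 ± 0.40, 1.37 ± 0.38 and 1.07 ± 0.83 above. No single male clone fell below 0 on either average. Among females the arrest average was 0.94 ± 0.31 in Purkinje, 0.85 ± 0.70 in CA1 and 0.73 ± 0.13 in cumulus clones (SD, n = 4, 4 and 3). The apoptosis average of the same groups was 0.40 ± 0.32, 0.30 ± 0.55 and 0.022 ± 0.11. Without Bax the apoptosis average was 2.38 ± 0.44 in male Purkinje, 1.85 ± 0.53 in male CA1 and 1.45 ± 0.90 in Sertoli clones, and 0.59 ± 0.46, 0.63 ± 0.45 and 0.093 ± 0.13 in the female groups.

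Embryos of 1 group differed in how many genes lay above or below the IVF embryos of their sex. Each of the 4 male Purkinje clones had 8, 8, 8 and 9 of the 10 genes above the highest male IVF embryo, and the male CA1 clones 7, 6, 6 and 6. Sertoli clones had 7, 2, 6 and 10, so that the second and the fourth were at the extremes. Among the 3 female clone groups the numbers were 2, 5, 5 and 4 in Purkinje, 3, 5, 10 and 2 in CA1, and 2, 4 and 3 in cumulus clones. The bar to pass was set by 7 male but 3 female IVF embryos, so the numbers do not compare the sexes. In a single embryo the share of all probes above the highest IVF embryo ran from 19.3% to 27% in male Purkinje, 19.3% to 23.2% in male CA1 and 17.7% to 23.5% in Sertoli clones. It ran from 31.6% to 37% in female Purkinje, 28.8% to 36.5% in female CA1 and 22.8% to 25.2% in cumulus clones. The counts of 2 and 3 of the 10 genes, in the second Sertoli clone and in female clones, thus lie near or below that share. Below the lowest IVF embryo lay 0, 3, 1 and 0 genes in Sertoli clones, and 0 in each male Purkinje and male CA1 clone. In females 3, 2, 1 and 2 did in Purkinje, 2, 1, 0 and 2 in CA1 and 1, 0 and 2 in cumulus clones. The share of all probes below it is not given. Single embryos also stood high on many genes at once: the fourth Sertoli clone, the third female CA1 clone and the first female IVF embryo were each the highest of their group for 7 genes, and the fourth male IVF embryo for 6. The third male Purkinje clone was the lowest of its group for 7.

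**Figure D3:**
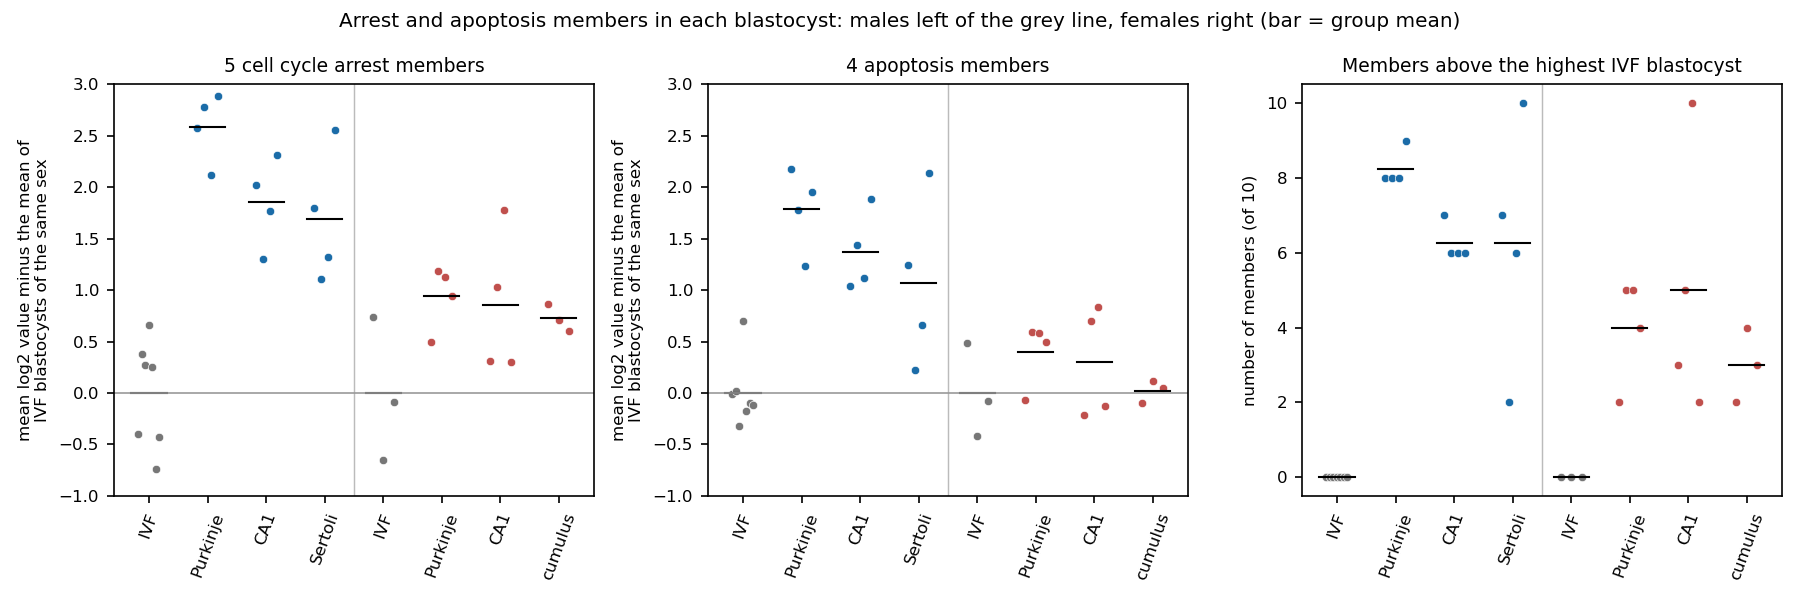
The first 2 panels give the mean log2 value of the 5 arrest and the 4 apoptosis genes minus the mean of IVF embryos of the same sex, and the third the number of genes above the highest IVF embryo of that sex, with a point per blastocyst and a bar per group mean. All 12 male clones lie above 0 in both averages, and the Sertoli clones spread from 2 to 10 genes.

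Within groups, after the group mean was taken from each value, Cdkn1a went with Mdm2 (r = 0.684), Bbc3 (0.674) and Ccng1 (0.618) over the 33 arrays, and less with Btg2 (0.142). The highest correlation among the 10 was that of Ccng1 with Pmaip1 (0.777), and the lowest that of Btg2 with Pmaip1 (-0.417). Among 15793 genes, those outside the 10 most like Cdkn1a in this measure were Trp53inp1 (0.809), a nuclear protein gene that p53 induces, Inpp5d (0.757), which encodes the phosphatase Ship1, Gipc2 (0.748), Shisa7 (0.743) and Unkl (0.718). These correlations describe single embryos that share slides and array scale, and no test was made of them.

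Another 6 probes read 4 of the genes. The second Ccng1 probe was well above background on all arrays, followed the brightest within groups (r = 0.595) and rose in the same 4 comparisons of clones with IVF. The second and the third Btg2 probe followed theirs too (r = 0.647 and 0.584) but were dim, and neither passed in any comparison. In male IVF embryos they averaged -1.86 ± 1.07 and -2.14 ± 0.99 (SD, n = 7), where the floor is -3.43. They were well above background on 33 and 32 arrays and on the floor on 1 and 3. The second probe differed from male IVF by 0.45 in male Purkinje clones (95% interval -0.51 to 1.42). In male CA1 and Sertoli clones it differed by 1.01 (0.043 to 1.98) and 0.15 (-0.82 to 1.12). Male minus female IVF was -0.12 on it (95% interval -1.19 to 0.94). The Btg2 calls thus rest on 1 probe, and its dimmer probes did not repeat them. The second Sesn1 probe rose in Sertoli clones (1.20, adjusted p = 0.0261) and in no other comparison, while the third lay on the floor on 29 arrays. The second Mdm2 probe lay on the floor on 26 arrays. Cdkn1a and Bax were each read by 1 probe printed as 10 spots, whose median SD within an array was 0.049 and 0.097 on the log2 scale.

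**Figure D4:**
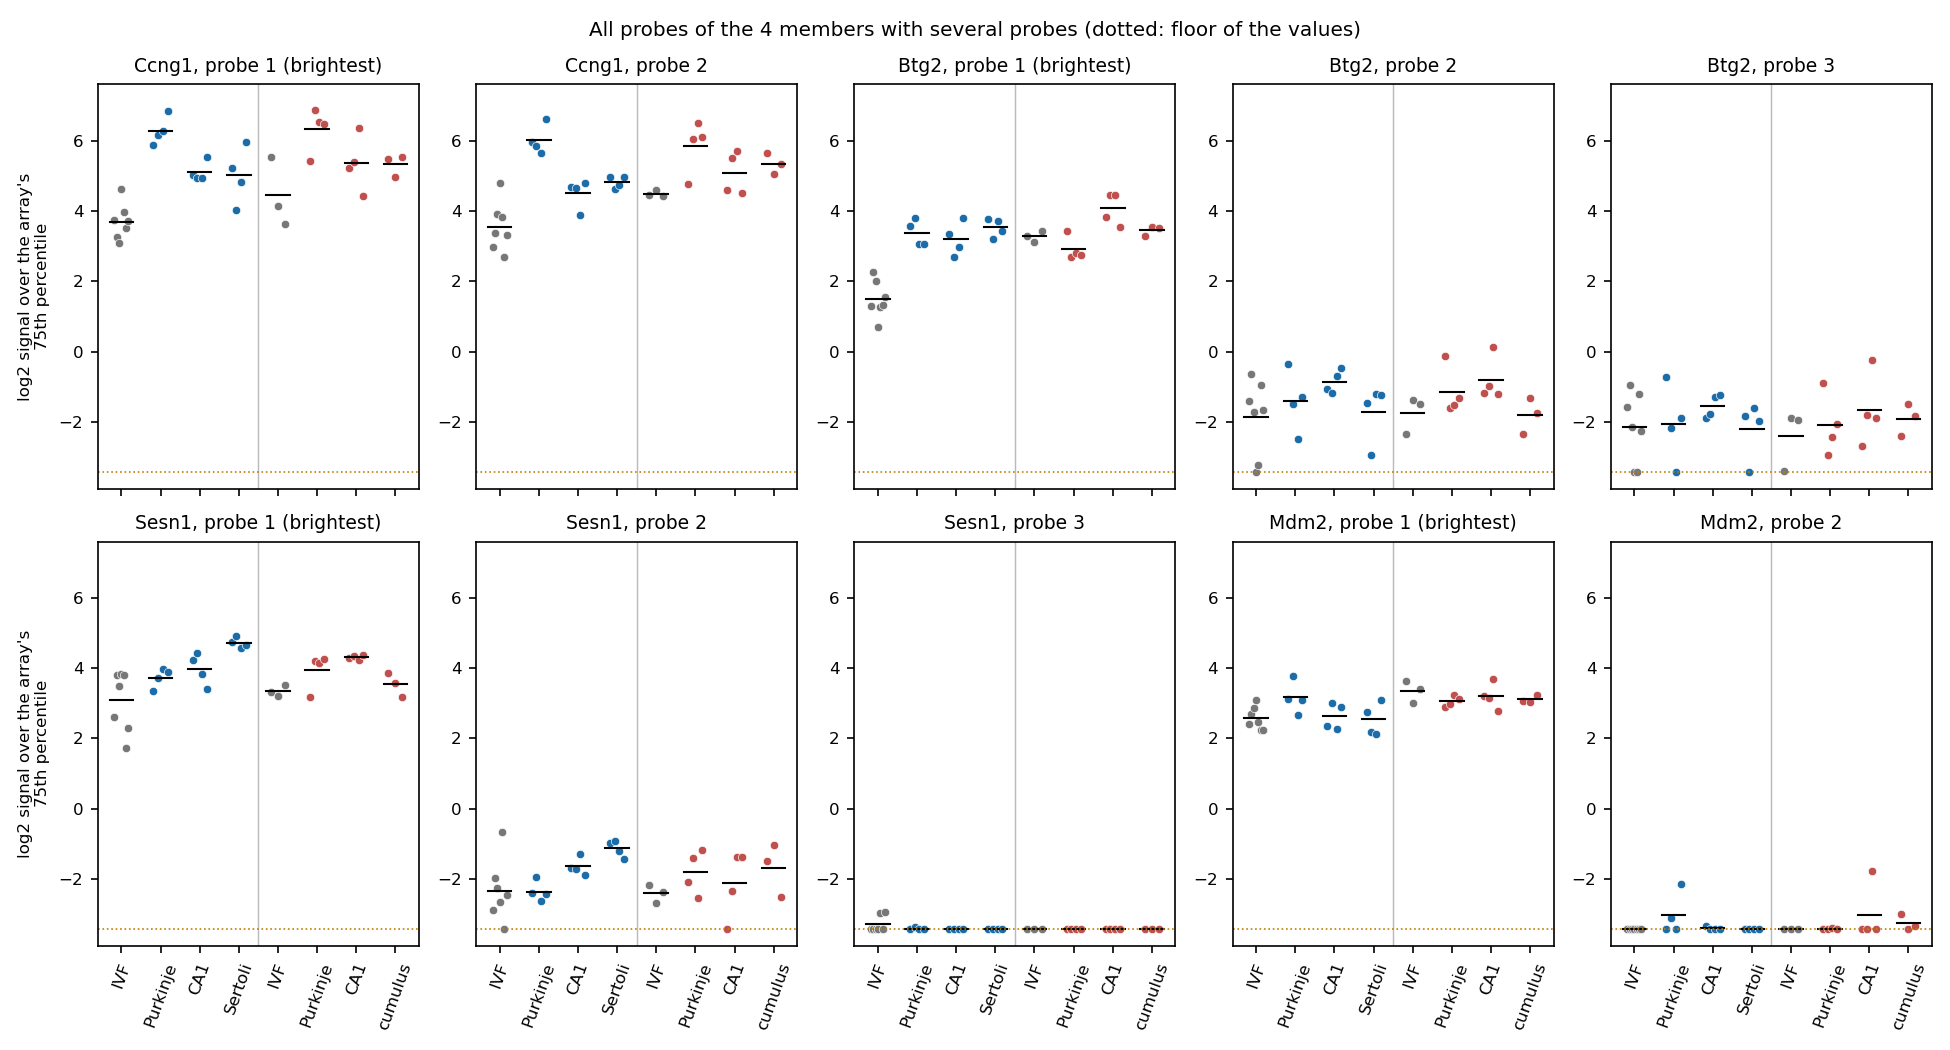
Each panel shows 1 probe of the 4 genes with more than 1, with a point per blastocyst, a bar per group mean, the y axis in log2 signal over the array's 75th percentile and the floor dotted. Both Ccng1 probes place the male IVF embryos lowest, whereas on the dimmer Btg2 probes the male IVF embryos overlap every other group.

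Trp53, which encodes p53 itself, fell in all 3 male clone groups, by 0.69 in male Purkinje clones (adjusted p = 0.0382), by 1.36 in male CA1 clones (adjusted p = 0.000131) and by 0.96 in Sertoli clones (adjusted p = 0.00541). Its mean in male IVF embryos was -0.15 ± 0.71 (SD, n = 7) and in female IVF embryos -0.88 ± 0.13 (SD, n = 3). In female clones the differences were -0.33, -0.31 and -0.55 for Purkinje, CA1 and cumulus, and none passed. Of the 14 genes tested among 17 regulators, 4 rose and 3 fell in male Purkinje, 0 and 3 in male CA1, and 2 and 3 in Sertoli clones. Among females 2 rose and 3 fell in Purkinje and 1 and 0 in CA1 clones. None passed in cumulus clones, where 2 were higher at an unadjusted p under 0.05, against 8.75% of all probes. Over all probes 16.3% rose and 10.1% fell in male Purkinje, 14.9% and 13.3% in male CA1, and 13.4% and 10.7% in Sertoli clones. In female Purkinje clones 11.2% of all probes rose, and of the 3895 called in either direction among 22787, 65.3% were higher. For female CA1 and cumulus clones 11.8% and 4.61% were called in either direction. Kat5, an acetyltransferase of p53, fell in all 3 male clone groups and in female Purkinje clones (-1.28, -0.80, -0.75 and -1.04, adjusted p from 0.000865 to 0.0398). Usp7, which removes ubiquitin from Mdm2 and p53, rose in male Purkinje, Sertoli, female Purkinje and female CA1 clones (0.72, 0.72, 0.90 and 0.86, adjusted p from 0.00132 to 0.00397). Mdm4, the partner of Mdm2, fell in male Purkinje, male CA1 and female Purkinje clones (-1.05, -1.10 and -1.11, adjusted p from 0.00154 to 0.0131).

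A second list of p53 targets was counted in the same comparisons. Of 27 tested among 29, 9 rose and 2 fell in male Purkinje, 3 and 0 in male CA1, and 4 and 1 in Sertoli clones. Of all probes 16.3%, 14.9% and 13.4% rose in these groups, and 10.1%, 13.3% and 10.7% fell. The numbers that rose in male CA1 and Sertoli clones thus lie near or below that share. In females 2 rose in Purkinje, 1 rose in CA1 and 1 fell in cumulus clones. There 11.2% of all probes rose in Purkinje clones, and 11.8% and 4.61% were called either way in CA1 and cumulus clones. The medians in the male groups were 0.62, 0.19 and 0.34. Aen, an exonuclease of apoptosis, rose in 5 of the 6 clone groups, by 1.62, 0.86, 0.65, 0.92 and 0.88 in male Purkinje, male CA1, Sertoli, female Purkinje and female CA1 clones (adjusted p from 1.24e-06 to 0.0123). Apaf1, the scaffold of the apoptosome, rose in male Purkinje and Sertoli clones (1.92 and 1.47, adjusted p from 0.00118 to 0.0108). Steap3, a metalloreductase, rose in male CA1 and Sertoli clones (1.18 and 1.24, adjusted p from 0.0032 to 0.0035). Cd82, a membrane protein of the tetraspanin family, fell in male Purkinje and Sertoli clones (-1.42 and -1.73, adjusted p from 0.000847 to 0.00417).

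The apoptosis machinery on which Bbc3 and Pmaip1 act was counted next. Of 16 Bcl2 family and caspase genes tested among 18, 1 rose and 1 fell in male Purkinje, 4 and 1 in male CA1, 3 and 0 in Sertoli and 1 and 0 in female Purkinje clones. None passed in female CA1 clones, with 3 higher at an unadjusted p under 0.05 against 15% of all probes, and in cumulus clones 1 fell. The shares of all probes that rose were 16.3%, 14.9%, 13.4% and 11.2% in male Purkinje, male CA1, Sertoli and female Purkinje clones. In male Purkinje, male CA1 and Sertoli clones 10.1%, 13.3% and 10.7% fell, and in cumulus clones 4.61% were called in either direction. Bmf, a BH3-only gene, rose in male CA1 and Sertoli clones (1.30 and 1.55, adjusted p from 0.00432 to 0.0121), the initiator Casp9 in Sertoli clones (1.11, adjusted p = 0.00737) and the antiapoptotic Bcl2l1 in male CA1 clones (0.73, adjusted p = 0.0146).

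All 15 genes of the G1 to S machinery were tested. In male Purkinje clones 1 rose, in male CA1 clones 3 rose and 2 fell, and in Sertoli clones 2 rose and 1 fell. The female Purkinje and CA1 clones each had 1 up and 2 down. Cumulus clones had none, where 4.61% of all probes were called in either direction. At an unadjusted p under 0.05, 1 was higher there, against 8.75% of all probes. Another 3 were lower, for which no share over all probes is given. Among all probes 16.3%, 14.9%, 13.4% and 11.2% rose in male Purkinje, male CA1, Sertoli and female Purkinje clones. In male Purkinje, male CA1 and Sertoli clones 10.1%, 13.3% and 10.7% fell. In female Purkinje clones 3895 of 22787 probes were called in either direction, 65.3% of them higher. In female CA1 clones 11.8% were called in either direction. Cdk2, the kinase that p21 inhibits, fell in male CA1, Sertoli and female CA1 clones (-1.51, -1.21 and -0.91, adjusted p from 2.87e-05 to 0.0418), while its partner Ccne1 rose in the same 3 groups (1.01, 0.92 and 0.95, adjusted p from 0.000343 to 0.011). Cdkn1b, which encodes the inhibitor p27, rose in male CA1 and female Purkinje clones (1.35 and 1.50, adjusted p from 0.0128 to 0.0344). Ccnd1, the cyclin of early G1, fell in female Purkinje and CA1 clones (-1.03 and -1.03, adjusted p from 0.00952 to 0.0132), but was well above background on 14 of the 33 arrays.

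Paralogs of the 10 genes were counted as their relatives in sequence. Of 9 tested among 10, 3 rose in male Purkinje clones (Btg3, Phlda1 and Btg1, by 1.23, 1.24 and 1.19, adjusted p from 0.0145 to 0.0441) and 1 in Sertoli clones (Ccng2, 1.90, adjusted p = 0.0414). None passed in male CA1, female Purkinje or female CA1 clones, with 1, 0 and 0 at an unadjusted p under 0.05, and 1 fell in cumulus clones. Of all probes 16.3%, 14.9% and 13.4% rose in male Purkinje, male CA1 and Sertoli clones. In female Purkinje clones 11.2% rose, and in female CA1 and cumulus clones 11.8% and 4.61% were called in either direction. At an unadjusted p under 0.05, 15% of all probes were higher in female CA1 clones. That share is not given for male CA1 and female Purkinje clones.

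The balance of all calls depended on how arrays were scaled, and the 10 genes were checked against it. With arrays scaled to their median and not to the 75th percentile, the share of called probes that were higher went from 61.7% to 27.6% in male Purkinje, from 53% to 35.8% in male CA1 and from 55.6% to 39.2% in Sertoli clones. Among females it went from 65.3% to 13.6% in Purkinje, from 58.6% to 46.2% in CA1 and from 43.4% to 54.6% in cumulus clones. It went from 28.2% to 10.9% for male against female IVF embryos. The median of all probes then shifted to -0.15 in male Purkinje, -0.13 in male CA1 and -0.32 in female Purkinje clones, while the median of the 10 genes was 1.85, 1.36 and 0.063. Under that scaling 7, 6 and 4 of the 10 genes rose in male Purkinje, male CA1 and Sertoli clones. Calls over all 22787 probes, in either direction, then numbered 4968, 5728 and 4531, against 6029, 6430 and 5511 under the main scaling. In female Purkinje clones Ccng1 then missed the threshold (1.28, adjusted p = 0.0512) and Btg2 was lower (-0.97, adjusted p = 0.0489).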

How the data were processed

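The deposited scanner files hold the intensity of each spot on a linear scale, and the column used was the processed signal, from which the software had removed background, per the file headers. On the 13 arrays of IVF embryos and cumulus clones 15.7% to 23.3% of these signals were at or below 0, and on the other 20 arrays 0%. Low signals thus differ in kind between the array sets, and the part of this in dim values was not tested. Over all arrays and probes 56.1% of values lay on the floor. The headers give Feature Extraction 9.5.3.1 and scanner G2505B for 13 arrays and 10.5.1.1 and G2505C for 20, and the submitters' processing notes give Feature Extraction 10.5.1. Per the labels' protocols, RNA of each blastocyst was amplified linearly and labelled with Cy3. The authors' value table holds log2 values centred per probe within each sex, which was found by setting it against the scanner values (median absolute difference 0.0123 for males and 0.00514 for females), and it served as an alternative. Its column medians ran from -0.59 to 0.77. How the authors chose that centring is not given in the sources used here.

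Control spots and outlier spots were dropped, and the remaining spots of each probe averaged. Signals were divided by the array's 75th percentile, floored at 0.0929 and put on the log2 scale. Kept were probes well above background on more than 0.5 of the arrays of at least 1 group, above the floor on at least 3 arrays, with at least 2 values in every group. That last condition was added after the files were opened. One model over all 8 groups was fitted with limma 3.58.1 in R 4.3.3 (lmFit and eBayes, 25 residual degrees of freedom), with Benjamini-Hochberg adjustment over 22787 probes and a threshold of 0.05. On simulated data with the real design it recovered 44% of changes of 1 and 80% of changes of 2 on the log2 scale for male Purkinje against IVF, and 26% and 79% for female Purkinje against IVF. There 100 probes were changed by each size, with equal means elsewhere, and 130 and 110 probes were called. The real comparisons called 6029 and 3895 probes, which makes the adjusted threshold less strict. These shares thus do not give the power of the reported tests. Of the probes, 22944 were named by accession, 6664 by symbol and 3108 by synonym through RefSeq, and 8458 kept the name of the file. In the normexp alternative the median spot and background signals were used, since 20 files lack the mean signal. The number of arrays limits the precision. The same replicate numbers were not taken as pairs, since no comparison had every pair's correlation of deviations above 0.1. Some pairs did pass 0.1, 3 of 4 for male Purkinje clones and IVF. So did 2 of 3 for cumulus clones and IVF and 2 of 3 for male and female IVF. In the other comparisons at most 1 pair did. Pairing in part is thus not excluded, and a replicate block was run as an alternative. Figures were drawn with matplotlib.

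Named were all 10 genes, every probe of each, at most 4 genes per companion list (those called the same way in most of the 6 clone against IVF comparisons, ties by mean change) with Trp53, and the 5 genes most like Cdkn1a. One gene that this rule names is not reported here. The genes and lists were chosen with earlier results of these data known. Companion lists were counted under the main scaling only. Probe coordinates were not used because their build is not named.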

Additional observations from a re-analysis of the deposited data

Results flagged for a closer look

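Of 60 combinations of a gene and a clone or male group of 4 to 10 embryos, 4 held an embryo whose gap to its nearest neighbour took up most of the group's range, past Dixon's 95% value. Chance marks about 1 in 20 groups in this way. Cdkn1a was 2.20 in the fourth Sertoli clone and -0.91 to -0.51 in the other 3. Plk2 was 0.39 in the third male Purkinje clone and 2.41 to 2.55 in the others. The first female Purkinje clone stood low for a pair of genes, with Sesn1 at 3.18 against 4.14 to 4.26 and Pmaip1 at 3.08 against 4.59 to 4.89. Its array percentile of 838 was the highest of the 4 female Purkinje arrays, the others running from 353.8 to 469.6, and the part of this in its values was not tested.

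Btg2 differed between groups in the tests of the difference itself, by its brightest probe only. It was lower in female Purkinje than in female CA1 clones by a log2 difference of -1.17 (adjusted p = 0.00907), with all 4 Purkinje clones below all 4 CA1 clones. Without the 3 female Purkinje arrays of low percentile, which leaves 1 embryo, it was -0.65 (adjusted p = 0.836). The male Purkinje effect exceeded the female one by 2.24 (adjusted p = 0.0133), with male IVF embryos at a mean of 1.49 and female IVF embryos at 3.28. That call was lost in 4 of 29 alternatives, with normexp (adjusted p = 0.9997), with only the groups of the comparison (0.0819), with the replicate block (0.085) and without the 5 Purkinje arrays of low percentile (0.319).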

How the results depend on the processing

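No gene of the 10 that passed a test turned its direction under any alternative. In male Purkinje clones, Cdkn1a, Ccng1, Plk2, Btg2, Bbc3, Pmaip1 and Phlda3 passed in all 23 alternatives. The cause of the changes below was not tested. With normexp background correction, the number of genes that passed was 5 in male CA1, 3 in Sertoli and 0 in female Purkinje clones and 0 for the sex difference in Purkinje clones. Calls over all probes then went from 6430 to 3949, from 5511 to 2554, from 3895 to 5668 and from 11 to 0 in that order. With only the groups of a comparison in the fit, and so fewer arrays, the number of genes was 5 in male CA1, 0 in female Purkinje and 1 in female CA1 clones. It was 0 for male against female IVF, 2 for male Purkinje against CA1 and 1 for male Purkinje against Sertoli clones. It was 0 for female Purkinje against CA1 clones and 0 for the sex difference in Purkinje clones. Calls over all probes were fewer than in the main fit in each of these comparisons. Scaling to the array median gave 2 for male against female IVF, where calls over all probes went from 78 to 193. On the 1 slide with both sexes, which holds 1 male IVF embryo, the Btg2 difference was -2.0. With a fixed slide term that difference was -2.0 too (adjusted p = 0.536), and the number of genes that passed was 0. Without the 5 Purkinje arrays of low percentile, which leaves 1 female and 2 male Purkinje embryos, the lone female taken to vary like the other groups, it was 0 in female Purkinje clones against IVF, 0 against female CA1 clones and 0 for the sex difference in Purkinje clones. Over all probes 6029 calls then became 2128 in male and 3895 became 333 in female Purkinje clones.

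The replicate block gave 1 in female CA1 clones, 1 for male Purkinje against Sertoli clones and 0 for the sex difference in Purkinje clones (Btg2 adjusted p = 0.085). It moved no other count of these genes by over 1.5 times. The labels do not say that these numbers mark pairs. Leaving out each embryo in turn gave 7 to 8 genes in male Purkinje, 5 to 8 in male CA1, 3 to 7 in Sertoli, 0 to 1 in female Purkinje and 0 to 1 in female CA1 clones. It gave 1 to 2 for male against female IVF, 0 to 1 for male Purkinje against CA1, 0 to 3 for male Purkinje against Sertoli and 0 to 2 for male CA1 against Sertoli clones. In the Purkinje arrays the low signal limits what can be measured.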
